A study of Mus musculus with 6 samples.

Results

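The genes described here encode the proteins of the mitochondrial ribosome, and they were taken by name. They are the rows whose gene symbol is Mrpl or Mrps, a number and at most 1 further letter, with a mean normalized count of at least 10 over the 6 libraries. Of 52550 genes in the files, 78 had such a symbol and all 78 reached that mean, so the threshold left none out. The lowest mean was 91.4 (Mrpl53) and the highest 3143 (Mrpl24). The rule itself uses no difference between the groups, but it was set with earlier results of these data known.

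The libraries hold messenger RNA of splenic plasmacytoid dendritic cells from C57BL/6 mice, the cell type that makes large amounts of type I interferon after sensing nucleic acids. Every library came from cells given R837 (imiquimod), an agonist of the endosomal receptor TLR7, for 12 hours. The 3 libraries of the R837 group had R837 alone, and the 3 libraries of the taurine group had R837 together with taurine, an amino sulfonic acid. Unstimulated cells and cells given taurine alone were not analysed here, so each difference below is one between stimulated cells with and without taurine. The labels give no genotype beyond the strain, no age, no sex and no taurine dose. They do not say that the replicates were separate animals or cultures, so p-values measure only the spread between these libraries, which may be technical. In RNA from many cells, a lower share of one cell type and less RNA per cell cannot be told apart.

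The mitochondrial ribosome translates the few proteins encoded by mitochondrial DNA, all of them core subunits of the respiratory chain and ATP synthase. Its ribosomal RNAs come from mitochondrial DNA, while its proteins are encoded in the nucleus, made in the cytosol and imported. Some of these proteins have a counterpart in the bacterial ribosome, and the others were added in the course of mitochondrial evolution. In the structural names used below, u stands for universal, b for bacterial, m before the letter for mitochondria-specific, L for the large subunit and S for the small subunit. Gene symbols do not always follow the structure. Mrps30 and Mrps18a encode proteins of the large subunit (mL65 and mL66), and Mrps36 encodes a part of the oxoglutarate dehydrogenase complex that was first assigned to the ribosome. The 78 genes therefore fall into 51 of the large subunit, 26 of the small subunit and Mrps36. Of the 77 ribosomal proteins, 46 have a name with u or b and are counted below as having a bacterial relative. The class follows the name alone, so mL66 and mS40 (Mrps18b) count as mitochondria-specific although they are paralogs of bS18m.

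Every member was measured in every library. Between 33585080 and 38392654 reads lay on genes per library, and the lowest read number of any member in any library was 21. Of 15265 genes tested over the whole table with limma, 979 passed an adjusted p of 0.05, of which 58.5% were higher with taurine. That share of higher calls was 44.1% after rescaling without the 50 most abundant genes and 69.2% with length and GC trends taken out. All 18 plasmacytoid markers passed the filter on low values, and their summed normalized count was 433735 to 470489 in the R837 libraries and 463318 to 478054 in the taurine libraries. Single markers moved in both directions, with 3 of the 18 called higher and 4 lower in limma. Irf7, for example, was at 22975 to 24748 normalized counts with R837 and 36430 to 39709 with taurine added, and Runx2 at 14160 to 14794 and 9196 to 9986. Defining T cell genes were nearly empty, with Cd3d and Cd3g at 0 in every library and Cd3e above 0 in only taurine replicate 1. The summed markers of 4 cell types were lower in all 3 taurine libraries. Those of conventional dendritic cells, mostly Itgax and Sirpa, were at 19618 to 20387 against 22861 to 23875 with R837 alone. Of that list only Itgax and Clec9a were lower in all 3 taurine libraries, and Zbtb46 was at 2922 to 3198 against 2573 to 3069. Lower too were the sums of T cells, almost all of it Cd8a (71925 to 77319 against 82952 to 90104), and of NK cells (1052 to 1230.3 against 1245 to 1950.03). The NK cell sum was mostly Klrd1, whose own groups overlapped. Endothelial markers, mostly Kdr, were at 83023 to 89060 against 100147 to 119271. Of that list Kdr and Cdh5 were lower in all 3 taurine libraries, and Pecam1 overlapped. Summed neutrophil markers (1533 to 1901 against 1033 to 1482) and erythroid markers (126 to 162 against at most 88.5) were low in all libraries and higher in all 3 taurine libraries. Of the single genes in these lists, only Ngp and Hba-a1 were higher in all 3 taurine libraries, and the groups of the others overlapped. The part of these differences in the values below was not tested.

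Transcripts of the mitochondrial ribosome differed little between stimulation with and without taurine, and most fitted changes were small and above 0. Mrps23 and Mrps21, both of the small subunit, were the members that passed the test, and both rose. None fell. Only 4 of the 78 members had a fitted change of 0.5 or more on the log2 scale in either direction (Mrpl53, Mrps23, Mrps21 and Mrpl13). Of the 78 members, 2 were called higher (2.56%), where 3.75% of all tested genes were called higher. No member was called lower by limma, where 2.66% of all tested genes were, and 6.41% were called in either direction. Without adjustment 13 members (16.7%) had a p under 0.05 in limma, against 23.7% of all tested genes. A fitted change above 0 was found for 55 of the 78, and their median log2 change was 0.09, beside -0.01 over all tested genes. In 19 members (24.4%) all 3 taurine libraries lay above all 3 R837 libraries, against 14.6% of all tested genes. In 4 members (5.13%) all 3 lay below, against 15.0% of all tested genes. The 95% interval of the log2 change lay within 0.5 of no change for 38 members and within 1 for 76, so for these 76 a change of 2-fold was outside the interval.

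**Figure D1:**
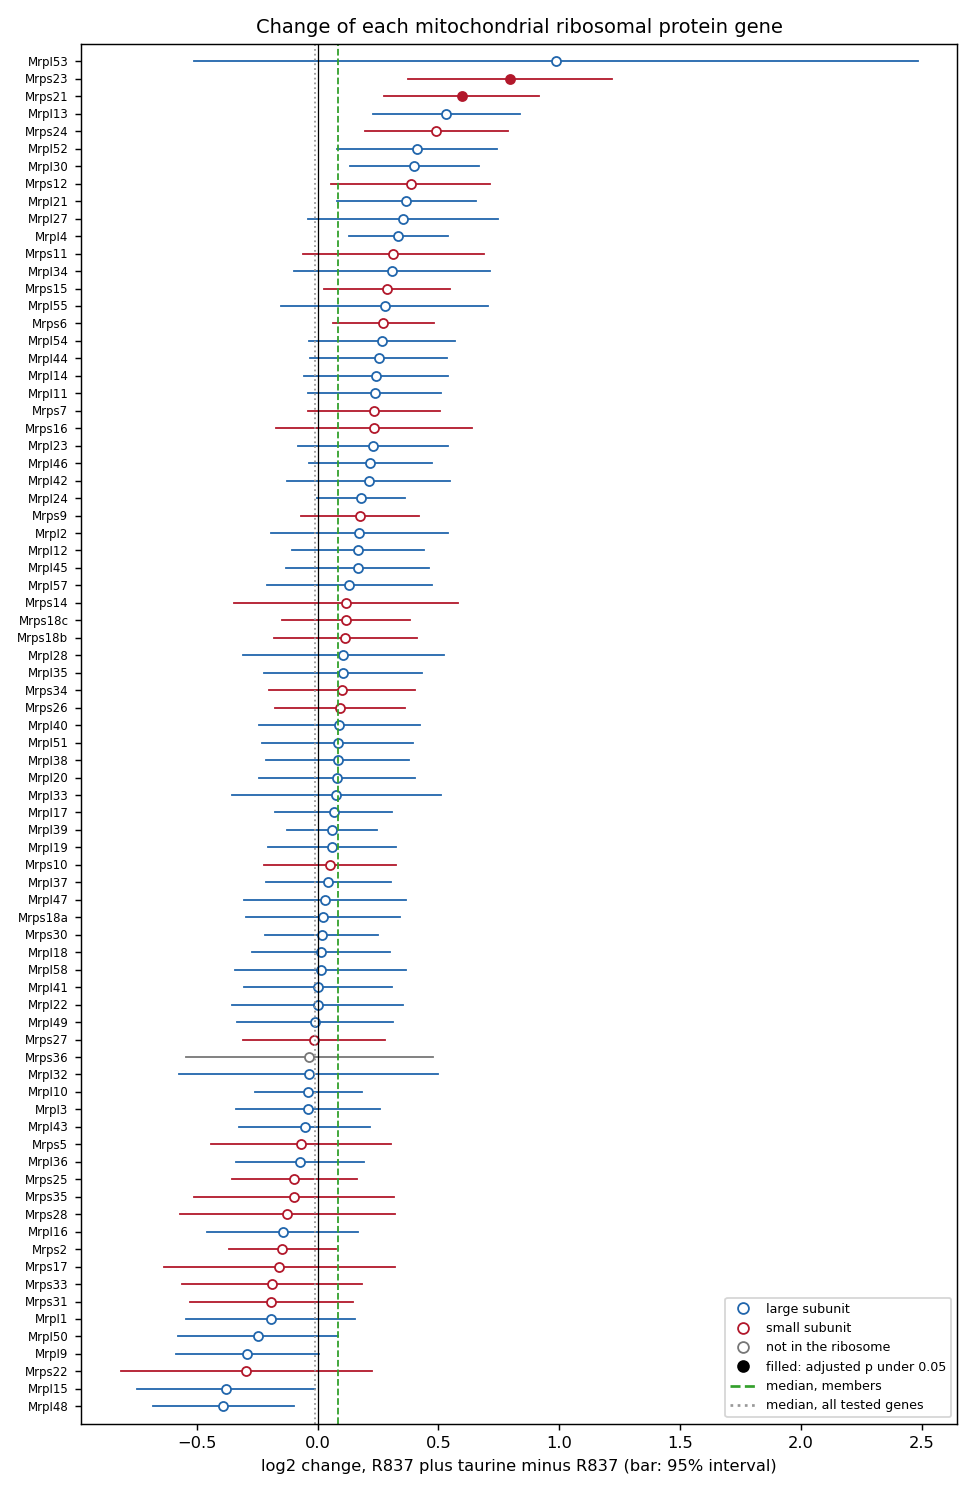
Fitted log2 change (R837 plus taurine minus R837, x axis) of each of the 78 genes with its 95% interval from limma, ordered by size; blue marks large subunit genes, red small subunit genes and grey Mrps36, and filled points passed an adjusted p of 0.05. Mrps23 and Mrps21 are the filled points, Mrpl53 has the widest interval, and the median of the members (dashed, 0.09) lies to the right of the median of all tested genes (dotted, -0.01).

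Mrps23 encodes mS23, a protein of the small subunit with no bacterial counterpart, and lies on mm10 chromosome 11 from 88204388 to 88211507 on the plus strand. In replicates 1, 2 and 3, Mrps23 had 836, 526 and 551 normalized counts with R837 and 1009.6, 1005 and 1248 with R837 plus taurine. The lowest taurine library was above the highest R837 library, and R837 replicate 1 stood closest to the taurine group. The means were 637 ± 172 and 1088 ± 139 (SD, n = 3 each), and the log2 change was 0.80 ± 0.19 (SE), with an adjusted p of 0.0428 in limma. Mrps21 encodes bS21m, the counterpart of bacterial S21, which sits near the platform of the small subunit, and lies on chromosome 3 from 95862634 to 95871519 on the minus strand. The R837 replicates 1, 2 and 3 held 519, 541 and 642 normalized counts of Mrps21 and the taurine replicates 907, 939.5 and 732. The groups again did not overlap, and taurine replicate 3 was the taurine library nearest to the R837 group. Its means were 567 ± 65.8 and 859.5 ± 111 (SD, n = 3 each), with a log2 change of 0.60 ± 0.14 (SE) and an adjusted p of 0.0436 in limma. Exons of both genes overlap no other annotated gene.

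Both calls sit just under the threshold. With 1 library left out and fewer libraries in the fit, Mrps23 passed only without R837 replicate 1 and Mrps21 only without R837 replicate 3, and over the 6 omissions the limma adjusted p ran from 0.0212 to 0.146 for Mrps23 and from 0.0271 to 0.146 for Mrps21, with log2 changes of 0.67 to 1.01 and 0.53 to 0.71. With length and GC trends taken out the changes were 0.72 (limma adjusted p = 0.0557) and 0.49 (limma adjusted p = 0.0754), so neither passed. Neither passed with no filter on low values (limma adjusted p = 0.0786 for Mrps23 and 0.0693 for Mrps21) or in limma without the abundance trend (0.148 and 0.133), and Mrps21 did not pass after rescaling without the 50 most abundant genes (limma adjusted p = 0.0511).

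Next to these stood several members that missed the threshold in limma and passed it in other tests. Mrpl13 encodes uL13m of the large subunit. Normalized counts of Mrpl13 were 900.1, 874 and 729 in the R837 libraries and 1076, 1158 and 1392 in the taurine libraries, each in the order of replicates 1, 2 and 3. Its groups did not overlap, and its log2 change was 0.53 ± 0.13 (SE), with an adjusted p of 0.0520 in limma. Mrpl13 shares 330 exon bases with Mtbp on the other strand, and with the reads of Mtbp added the change was 0.41 (limma adjusted p = 0.0426). Mrps24 encodes uS3m, part of the messenger RNA entry channel of the small subunit. For Mrps24 the normalized counts of replicates 1, 2 and 3 were 576, 603 and 489 with R837 and 786, 705 and 851 with taurine added. All taurine libraries were above all R837 libraries, with a log2 change of 0.49 ± 0.13 (SE) and an adjusted p of 0.0607 in limma. Mrps24 shares 226 exon bases with Urgcp on the same strand, and with those reads added the change was 0.38. In edgeR on the recovered reads 3 members were called higher, namely Mrps23, Mrps21 and Mrpl13, where 3.74% of all tested genes were. DESeq2 called 6 members higher, the former 3 with Mrps24, Mrpl4 and Mrpl30, where it called 6.53% of all tested genes higher. Restricting limma to genes with a mean of at least 50 gave 5 members called higher, the 6 without Mrpl30, where 5.59% of the genes kept were called higher.

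Mrpl4 and Mrpl30 were singled out after their values were seen. Mrpl4 encodes uL4m, which lines the tunnel through which the new protein leaves. Mrpl4 stood at 1144, 1189 and 1239 normalized counts in replicates 1, 2 and 3 of the R837 group and at 1433, 1535 and 1533 in those of the taurine group. All taurine libraries lay above all R837 libraries with little spread in either group, with a log2 change of 0.33 ± 0.09 (SE) and an adjusted p of 0.0639 in limma. Mrpl30 encodes uL30m. In replicates 1, 2 and 3, Mrpl30 had 947, 1089.7 and 869 normalized counts with R837 and 1256, 1188 and 1382 with R837 plus taurine. Its log2 change was 0.40 ± 0.12 (SE), with an adjusted p of 0.0788 in limma. It was the only member that passed with length and GC trends taken out, at 0.48 with an adjusted p of 0.0397 in limma.

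The widest interval belonged to Mrpl53, which encodes mL53 and had the lowest mean of the 78. The R837 replicates 1, 2 and 3 held 56.6, 95.3 and 21.9 normalized counts of Mrpl53 and the taurine replicates 54.5, 69.5 and 251. A single library, taurine replicate 3, lay far above the other 5, and the groups overlapped. The log2 change of 0.99 had a 95% interval of -0.51 to 2.48 and an adjusted p of 0.407 in limma. Without taurine replicate 3 it was 0.32. Mrpl53 shares 695 exon bases with Gm42688 on the same strand, out of 790 bases of its own, and with the overlapping reads added the change was -0.13. Mrpl52, which encodes mL52, had the largest of the remaining uncalled changes. Normalized counts of Mrpl52 were 514, 684 and 492 in the R837 libraries and 759, 707 and 762 in the taurine libraries, each in the order of replicates 1, 2 and 3. The groups did not overlap, although R837 replicate 2 came close to the taurine group, and the log2 change was 0.41 ± 0.15 (SE) with an adjusted p of 0.128 in limma.

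Fitted changes below 0 were found for 23 members and none passed in limma. The 4 members whose taurine libraries all lay below the R837 libraries were Mrpl48, Mrpl15, Mrpl9 and Mrps2, named after their values were seen. Mrpl48 encodes mL48, a mitochondria-specific protein of the large subunit. For Mrpl48 the normalized counts of replicates 1, 2 and 3 were 1985, 1659 and 1444 with R837 and 1212, 1263 and 1382 with taurine added. R837 replicate 1 was highest, and the 3 taurine libraries lay close together. The log2 change was -0.39 ± 0.13 (SE), with an adjusted p of 0.106 in limma, and DESeq2 called it lower, where it called 6.11% of all tested genes lower. Mrpl48 shares 708 exon bases with Rab6a on the other strand, and with those reads added the change was -0.44. Mrpl15 encodes uL15m. Mrpl15 stood at 869, 1205 and 791 normalized counts in replicates 1, 2 and 3 of the R837 group and at 728, 666 and 776 in those of the taurine group. Here R837 replicate 2 stood above the rest, and the log2 change of -0.38 ± 0.16 (SE) became -0.20 without it. Mrpl9 (bL9m) had a log2 change of -0.29 ± 0.13 (SE) and Mrps2 (uS2m) one of -0.15 ± 0.10 (SE), with adjusted p-values of 0.219 and 0.407 in limma.

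**Figure D2:**
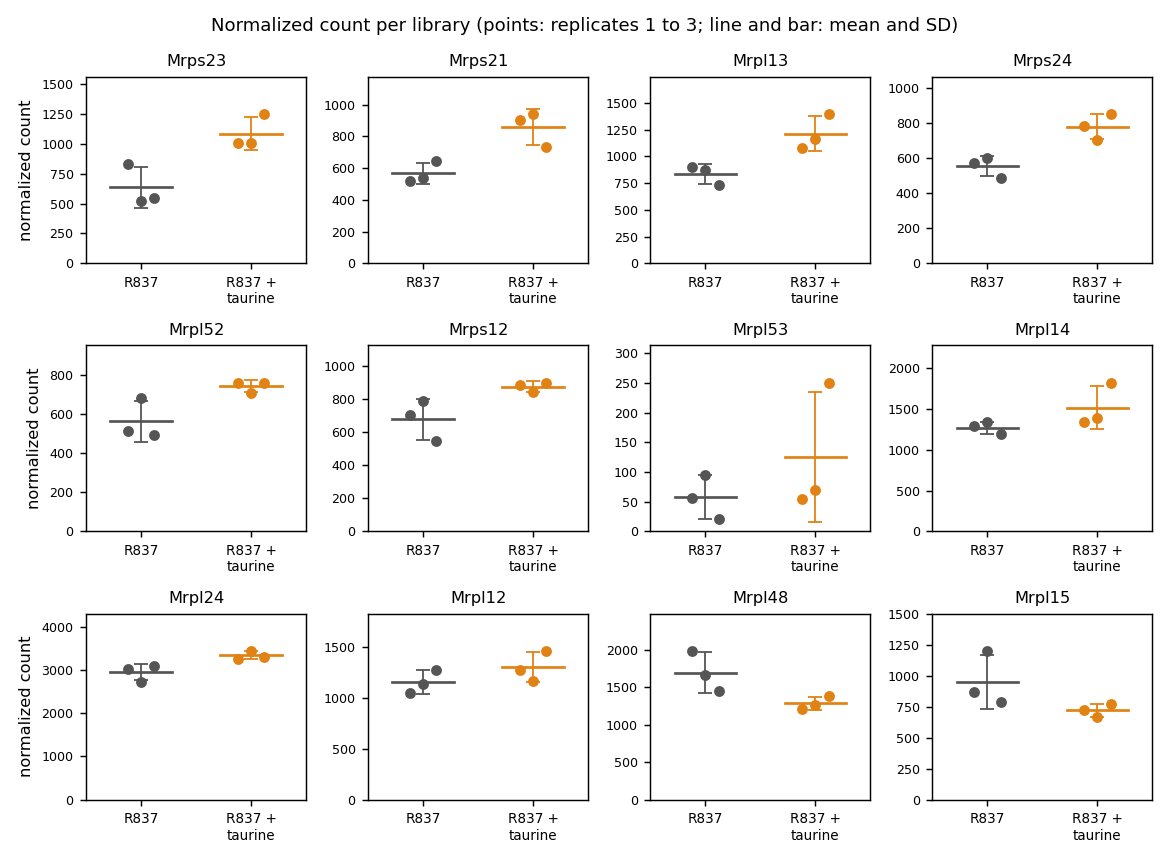
Normalized count (y axis, from 0) of 12 members in each library; grey points are the 3 R837 libraries and orange points the 3 R837 plus taurine libraries in the order of replicates 1 to 3, with the mean as a line and the SD as a bar. Mrps23 and Mrps21 show separate groups, Mrpl53 shows 1 high taurine library at 251, and Mrpl48 and Mrpl15 show taurine libraries below the R837 libraries.

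Levels of different members can be set beside each other only per length, as mean normalized count per kb of annotated exon. On that scale the 78 members ran from 25.6 to 1471 with a median of 253. The highest level was that of Mrpl14 (uL14m, at the face where the subunits meet), at 1471 per kb. In replicates 1, 2 and 3, Mrpl14 had 1289.7, 1339 and 1190.01 normalized counts with R837 and 1344, 1387 and 1827 with R837 plus taurine. The groups did not overlap, taurine replicate 3 was well above the others, and the log2 change of 0.24 ± 0.13 (SE) was 0.10 without it. The second level was that of Mrpl24 (uL24m, near the exit of the tunnel), at 1394 per kb, which was also the most abundant member per gene. The R837 replicates 1, 2 and 3 held 3028, 2733 and 3086 normalized counts of Mrpl24 and the taurine replicates 3265, 3443 and 3304. All taurine libraries lay above all R837 libraries, and its log2 change was 0.18 ± 0.08 (SE), with an adjusted p of 0.217 in limma. Mrpl54 (mL54) followed at 1280 per kb with a log2 change of 0.27 ± 0.13 (SE), and Mrpl39 (mL39) at 1036 per kb with 0.06 ± 0.08 (SE). Both had overlapping groups.

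At the low end stood Mrps35 (mS35) at 25.6 per kb, Mrpl33 (bL33m) at 41.6, Mrpl35 (bL35m) at 63.0 and Mrps17 (uS17m) at 69.0. All 4 had overlapping groups and log2 changes between -0.16 and 0.11, with adjusted p-values of 0.702 to 0.854 in limma. Normalized counts of Mrps35 were 259, 203 and 222 in the R837 libraries and 217, 242 and 182 in the taurine libraries, each in the order of replicates 1, 2 and 3. For Mrpl33 the normalized counts of replicates 1, 2 and 3 were 383, 239 and 277 with R837 and 313, 295 and 322 with taurine added. Neither gene separated the groups, and for Mrps35 the sign of the change turned without taurine replicate 3 (0.01) and with length and GC trends taken out (0.06). For Mrpl33 it turned without R837 replicate 2 (-0.07). Annotated exon length bears on this order. It is the union of all annotated transcripts, and the 10 members lowest per kb had exon lengths of 3991 bases or more, while the 10 highest had at most 2533 bases. Of those 10 highest, 6 encode large and 4 small subunit proteins. In all, the 10 most abundant members made up 29.9% of the summed mean normalized count of the 78.

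**Figure D3:**
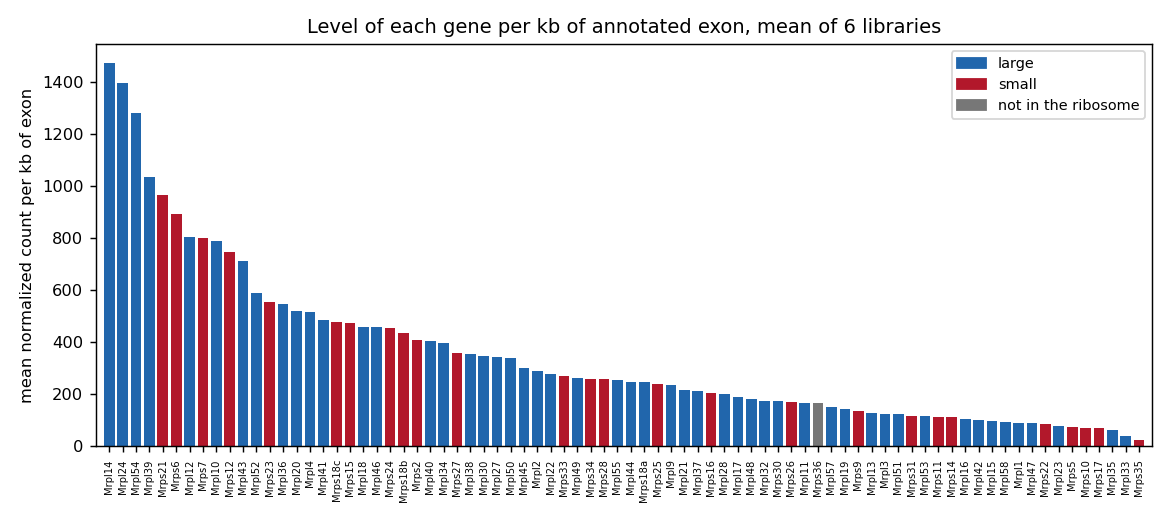
Mean normalized count per kb of annotated exon over all 6 libraries (y axis, from 0) for each member, in descending order; blue bars are large subunit genes, red bars small subunit genes and the grey bar Mrps36. Mrpl14, Mrpl24, Mrpl54 and Mrpl39 are above 1000 per kb, and Mrps35 is lowest at 25.6.

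Members with particular functions in translation were mostly near no change. Mrps12 encodes uS12m, a protein of the decoding centre. Mrps12 stood at 702, 786 and 546 normalized counts in replicates 1, 2 and 3 of the R837 group and at 887, 841 and 900.1 in those of the taurine group. The groups did not overlap, and the log2 change was 0.39 ± 0.15 (SE), 0.24 without R837 replicate 3, with an adjusted p of 0.150 in limma. Mrpl10, Mrpl11 and Mrpl12 encode the stalk and its base, where translation factors bind, and Mrpl12 is also known to bind the mitochondrial RNA polymerase. In replicates 1, 2 and 3, Mrpl12 had 1052, 1139.7 and 1277 normalized counts with R837 and 1270.1, 1171 and 1463 with R837 plus taurine. Taurine replicates 1 and 2 lay within the R837 range, and the log2 change was 0.17 ± 0.12 (SE). For Mrpl10 the change was -0.04 ± 0.10 (SE), with a sign that turned without R837 replicate 2 (0.02). The R837 replicates 1, 2 and 3 held 493, 494 and 476 normalized counts of Mrpl11 and the taurine replicates 638, 538 and 553. Mrpl11 was the member of the stalk whose groups did not overlap, with a log2 change of 0.24 ± 0.12 (SE) and an adjusted p of 0.277 in limma.

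Mrpl45 encodes mL45, which ties the ribosome to the inner membrane, and its log2 change was 0.17 ± 0.13 (SE). Mrpl58 encodes mL62, a peptidyl-tRNA hydrolase built into the large subunit that can release stalled chains. Normalized counts of Mrpl58 were 318, 333 and 293 in the R837 libraries and 279.7, 308 and 368 in the taurine libraries, each in the order of replicates 1, 2 and 3. The groups overlapped, and the log2 change was 0.01 ± 0.16 (SE). Mrps30, whose protein mL65 belongs to the large subunit, had a log2 change of 0.02 ± 0.10 (SE). For both Mrpl58 and Mrps30 the sign turned after rescaling without the 50 most abundant genes (-0.02 in each).

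The 3 Mrps18 genes encode paralogs that occupy different places, Mrps18c as bS18m, Mrps18b as mS40 and Mrps18a as mL66. Their log2 changes were 0.12 ± 0.12 (SE) for Mrps18c, 0.12 ± 0.13 (SE) for Mrps18b and 0.02 ± 0.14 (SE) for Mrps18a, and the sign for Mrps18a turned with length and GC trends taken out (-0.03) and after rescaling without the 50 most abundant genes (-0.01). For Mrps18c the normalized counts of replicates 1, 2 and 3 were 518, 457 and 507 with R837 and 525, 546 and 535 with taurine added. Only Mrps18c of these 3 had groups that did not overlap, by a small margin. Mrps36 stood at 189, 189 and 257 normalized counts in replicates 1, 2 and 3 of the R837 group and at 196, 165 and 264 in those of the taurine group. Mrps36, which is not a ribosomal protein, had overlapping groups and a log2 change of -0.03 ± 0.23 (SE).

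Both subunits had a median change slightly above 0. Of the 51 large subunit members 39 had a change above 0, with a median log2 change of 0.08, 11 (21.6%) with all taurine libraries above and 3 (5.88%) with all below. Of the 26 small subunit members 16 had a change above 0, with a median of 0.11, 8 (30.8%) with all above and 1 (3.85%) with all below. Of all tested genes 14.6% had all taurine libraries above and 15.0% all below. Summed over the small subunit, replicates 1, 2 and 3 held 17087, 17341 and 17247 normalized counts with R837, and with taurine added they held 19035, 18933 and 19274. The groups did not overlap, and the taurine mean of 19081 ± 175 (SD, n = 3) was 10.8% above the R837 mean of 17225 ± 128 (SD, n = 3). Summed over the large subunit, they were 37834, 39314 and 38227 against 40502, 39948 and 42225. That was 6.33% higher on the means, again without overlap, although R837 replicate 2 and taurine replicate 2 were near each other.

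The size of these differences depended on what the counts were scaled to. Scaled instead to each library's total of reads on genes (RPM), the small subunit sums were 479, 490 and 493 against 521, 518 and 527, a difference of 7.15%. The large subunit sums were 1059, 1111 and 1093 against 1109, 1093 and 1155 RPM, a difference of 2.86%, and the groups overlapped. After rescaling without the 50 most abundant genes 48 of the 78 members had a change above 0, in place of 55, with a median log2 change of 0.05. The median of all tested genes was then -0.05, so the gap between members and all genes was 0.10 on both scales.

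**Figure D4:**
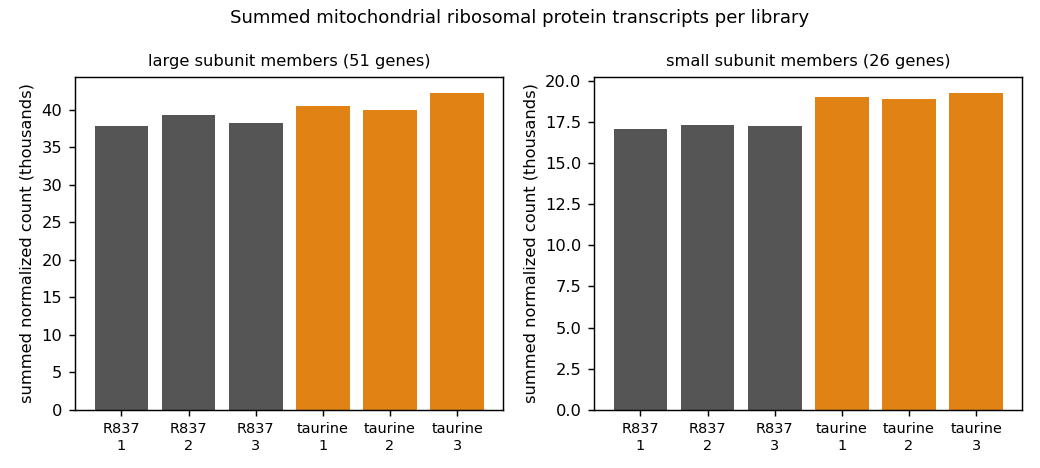
Summed normalized count divided by 1000 (y axes, from 0) of the 51 large subunit genes (left) and the 26 small subunit genes (right) in each library; grey bars are R837 libraries and orange bars R837 plus taurine libraries. The small subunit sums are 17087 to 17341 with R837 and 18933 to 19274 with taurine added, and the large subunit sums differ by less in proportion.

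Within the small subunit, the 16 members with a bacterial relative had a median log2 change of 0.20, with 7 above (43.8%) and 1 below in all taurine libraries, beside 14.6% and 15.0% of all tested genes. The 10 mitochondria-specific ones had a median of -0.06, with Mrps23 as the member whose libraries were all above. In the large subunit the medians were 0.09 for 30 bacterial relatives and 0.08 for 21 mitochondria-specific proteins. Over both subunits the 46 bacterial relatives had 15 above (32.6%) and 3 below (median 0.12). The 31 mitochondria-specific proteins had 4 above (12.9%), a share near that of all tested genes, and 1 below (median 0.06). These are descriptions of the genes, and the difference between the classes was not tested.

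The libraries contributed unequally to these values. Taurine replicate 3 held the highest value of 27 members and R837 replicate 2 the lowest of 20. On the log2 scale the members' median deviation from their own mean came to -0.06, -0.07 and -0.03 for replicates 1, 2 and 3 of the R837 group and to 0.05, 0.02 and 0.09 for those of the taurine group. All 3 R837 libraries were therefore below 0 and all 3 taurine libraries above. The spread was small for most members, with a median coefficient of variation of 10.0% in the R837 group and 9.86% in the taurine group, beside 13.6% and 12.8% over all tested genes.

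Exon length and GC content moved with the change. Across the 78 members the log2 change had a Spearman correlation of -0.40 with exon length and 0.46 with GC content. These are correlations across genes of the same 6 libraries, and genes are not independent replicates. Over all tested genes the corresponding values were -0.19 and 0.14. The 31 members with exons under 2000 bases had a median log2 change of 0.17 and the 47 longer ones 0.06, beside 0.12 and -0.04 over all tested genes of those lengths. Of the 36 members with a GC content of 50% or more, 31 had a change above 0, with a median of 0.23 and 13 (36.1%) with all taurine libraries above. Of all tested genes of that GC content 55.8% had a change above 0, with a median of 0.05 and 19.5% with all above. The 42 members of lower GC content had a median of 0.02, 6 (14.3%) with all above and 4 (9.52%) with all below, beside a median of -0.07, 10.2% and 18.1% over all tested genes of lower GC content. Mrps23 and Mrps21 belong to the shorter and GC-richer members, at 1560 and 739 bases and 52.1% and 52.7% GC.

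Length also moved with the libraries over all tested genes. The deviation of a gene from its mean had a Spearman correlation with exon length of 0.11, 0.15 and 0.04 in the R837 libraries and -0.10, -0.13 and -0.20 in the taurine libraries. With a smooth trend on length and GC removed from each library, the correlations of the members' changes were -0.01 with length and 0.08 with GC content. The members' median was then 0.10, beside 0.01 over all tested genes, and 52 of 78 were above 0. The source of the trend was not tested.

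**Figure D5:**
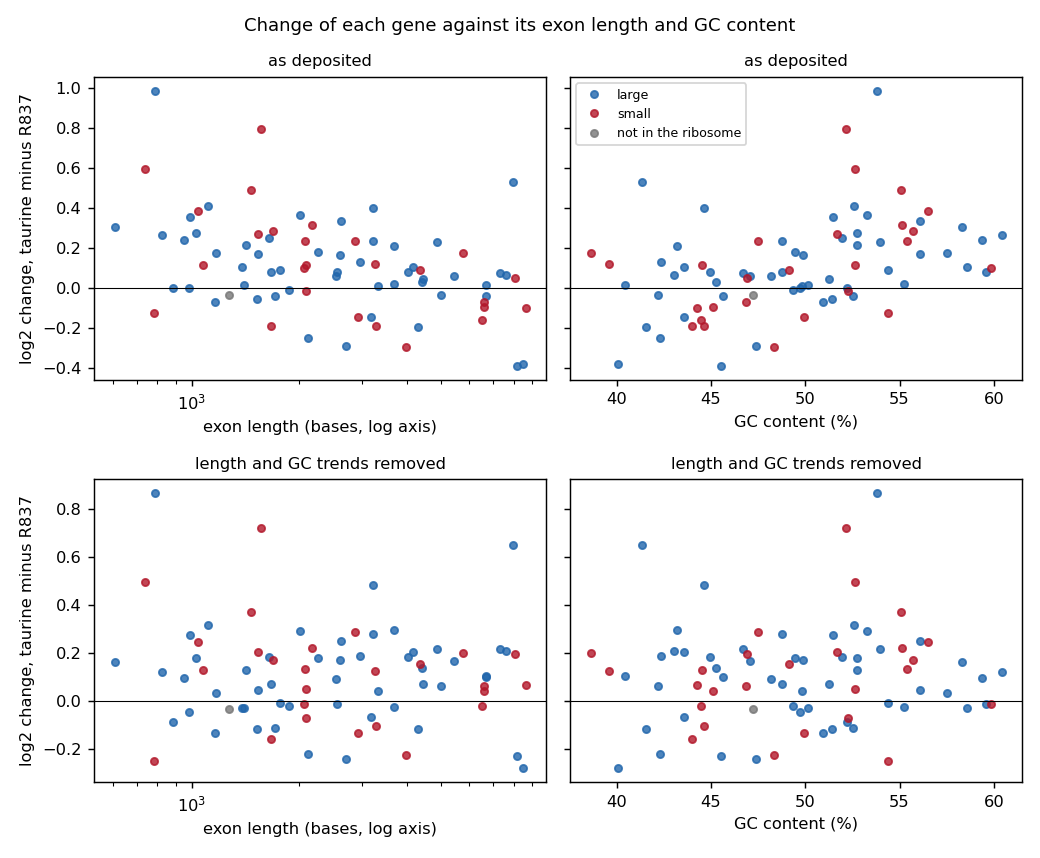
Log2 change of each member (y axes, R837 plus taurine minus R837) against annotated exon length in bases on a log axis (left) and GC content in percent (right), from the deposited values (top) and with each library's length and GC trend removed (bottom); blue points are large subunit genes, red points small subunit genes and the grey point Mrps36. In the top panels the change falls with length (Spearman -0.40) and rises with GC content (0.46), and in the bottom panels the correlations are -0.01 and 0.08.

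Many members lie close against other genes, and the counts do not say on which strand a read lay. Exons of 33 members overlap an exon of another annotated gene. The 45 members free of overlap, which include Mrps23 and Mrps21, had a median log2 change of 0.08. Of these 45, 10 (22.2%) had all taurine libraries above and 2 (4.44%) all below. The 33 with overlap had a median of 0.09, 9 (27.3%) with all above and 2 (6.06%) with all below. Of all tested genes 14.6% had all taurine libraries above and 15.0% all below. With the reads of overlapping genes added, 51 of the 78 members had a change above 0. Mrpl13 then passed at 0.41, Mrpl49 at 0.42 and Mrpl48 at -0.44, with adjusted p-values of 0.0426, 0.0129 and 0.0378 in limma. Mrps23 and Mrps21, whose values the addition left unchanged, passed as well. Of all 15265 tested genes 577 were then called higher and 408 lower. The sums with overlapping reads take in all reads of the other gene, whatever its own level. Mrpl46 and Mrps11, a gene of each subunit, lie head to head on chromosome 7 and overlap by 413 bases. In replicates 1, 2 and 3, Mrpl46 had 655, 579 and 564 normalized counts with R837 and 701, 688 and 697 with R837 plus taurine. The R837 replicates 1, 2 and 3 held 244, 197 and 223 normalized counts of Mrps11 and the taurine replicates 279.7, 244 and 304. Their log2 changes were 0.22 ± 0.11 (SE) and 0.31 ± 0.17 (SE), and neither passed in limma.

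Genes of the mitochondrial ribosome are known to share promoter elements, among them sites of nuclear respiratory factor 1 (NRF-1), of ETS factors such as GABP (also called NRF-2) and of YY1. The 250 bases before the transcription start were taken from RefSeq (build GRCm38.p6), which held a window for 69 of the 78 members (75 windows, since some genes have more than 1 start). Letters searched on both strands were GCGCA and GCGC with any 1 base between them for NRF-1, CCGGAAG for ETS factors and AAGATGGCG for YY1. The ETS and YY1 letters can share bases, but no member's window held both. NRF-1 letters were found in 10 windows (13.3%), where 3.74% of 32851 windows of the same length held them. ETS letters were found in 18 windows (24.0%, against 6.91%) and YY1 letters in 2 (2.67%, against 0.606%). At least 1 of the 3 was in 38.7% of the members' windows, against 10.5% of all windows. The windows compared were not matched to those of the members in GC content. A match is a description of the letters and not of a bound site.

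The 4 windows shown are those of both called members and of 1 gene each with ETS and YY1 letters. Capitals mark the matching letters, which read as the reverse complement of the motif in these windows. The window of Mrps21, chr3:95871515-95871764 on the minus strand, holds NRF-1 letters that begin 91 bases before the start. In Mrpl52, chr14:54426659-54426908 on the plus strand, ETS letters begin 47 bases before the start, and in Mrps11, chr7:78782881-78783130 on the plus strand, YY1 letters begin 108 bases before it. The window of Mrps23, chr11:88204138-88204387 on the plus strand, held none of the 3 in these letters.
Mrps21: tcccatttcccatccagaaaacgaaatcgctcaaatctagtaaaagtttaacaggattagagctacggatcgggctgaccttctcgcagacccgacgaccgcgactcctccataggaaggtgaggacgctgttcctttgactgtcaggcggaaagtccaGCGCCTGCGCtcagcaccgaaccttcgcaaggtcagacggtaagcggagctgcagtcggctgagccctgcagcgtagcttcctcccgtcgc
Mrpl52: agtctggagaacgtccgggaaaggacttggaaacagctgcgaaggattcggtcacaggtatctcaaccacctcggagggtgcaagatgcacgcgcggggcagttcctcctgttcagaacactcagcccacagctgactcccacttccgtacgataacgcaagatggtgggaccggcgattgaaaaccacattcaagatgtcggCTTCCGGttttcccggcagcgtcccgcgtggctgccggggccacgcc
Mrps11: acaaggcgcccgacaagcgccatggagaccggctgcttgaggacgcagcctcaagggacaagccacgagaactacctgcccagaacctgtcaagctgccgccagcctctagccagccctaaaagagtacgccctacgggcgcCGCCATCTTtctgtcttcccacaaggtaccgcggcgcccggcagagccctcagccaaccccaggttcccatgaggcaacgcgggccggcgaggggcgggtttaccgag
Mrps23: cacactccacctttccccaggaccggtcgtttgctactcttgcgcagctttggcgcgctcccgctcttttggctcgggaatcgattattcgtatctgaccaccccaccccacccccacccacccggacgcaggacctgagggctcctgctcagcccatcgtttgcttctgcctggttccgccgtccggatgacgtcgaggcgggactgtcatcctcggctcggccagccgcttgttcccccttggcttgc

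Median changes of members with and without NRF-1 or ETS letters ran from 0.04 to 0.15. The 10 members with NRF-1 letters had a median log2 change of 0.15, 3 with all taurine libraries above and 1 with all below, and the 59 without had a median of 0.08, 14 with all above and 2 with all below. Members with ETS letters had a median of 0.04 (18 members, 2 with all above and 1 with all below). Those without had a median of 0.11 (51 members, 15 with all above and 2 with all below). Of all tested genes 14.6% had all taurine libraries above and 15.0% all below. The differences between these groups were not tested. Transcripts of the factors themselves did not pass in limma. Nrf1, the gene of NRF-1, had a log2 change of 0.18 ± 0.10 (SE), Gabpa, the DNA-binding subunit of GABP, one of -0.19 ± 0.11 (SE), and Yy1 one of -0.21 ± 0.08 (SE).

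The 5 other proteins of the mitochondrial ribosome that carry names outside the rule were tested, and none passed in limma. Dap3 encodes the GTP-binding protein mS29. Normalized counts of Dap3 were 1249, 1134 and 1297 in the R837 libraries and 1180.2, 1355 and 1306 in the taurine libraries, each in the order of replicates 1, 2 and 3. The groups overlapped, and the log2 change was 0.06 ± 0.10 (SE). Aurkaip1 (mS38) and Gadd45gip1 (mL64) had all taurine libraries above all R837 libraries, with log2 changes of 0.37 ± 0.14 (SE) and 0.27 ± 0.11 (SE). The other two, Ptcd3 (mS39) and Chchd1 (mS37), were at -0.05 and 0.15 with overlapping groups.

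Genes that build or serve the mitochondrial ribosome had median changes below 0. Of 29 genes of ribosome assembly and ribosomal RNA modification, none passed in limma in either direction. Their median log2 change was -0.15, and 2 (6.90%) had all taurine libraries above and 6 (20.7%) all below, beside 14.6% and 15.0% of all tested genes. Of 16 mitochondrial translation factors and messenger RNA partners, none was called higher and 2 (12.5%) were called lower in limma, where 3.75% and 2.66% of all tested genes were. Mtfmt encodes the enzyme that formylates the initiator methionyl-tRNA. For Mtfmt the normalized counts of replicates 1, 2 and 3 were 502, 579 and 528 with R837 and 376, 383 and 351 with taurine added. It fell by 0.53 ± 0.12 (SE) on the log2 scale, with an adjusted p of 0.0428 in limma. Lrpprc encodes a protein that stabilises mitochondrial messenger RNAs. Lrpprc stood at 1205, 1353 and 1097 normalized counts in replicates 1, 2 and 3 of the R837 group and at 923, 879 and 868 in those of the taurine group. It fell by 0.45 ± 0.11 (SE), with an adjusted p of 0.0470 in limma. For both genes the taurine libraries lay close together and under every R837 library. With 1 library left out, Mtfmt passed in none of the 6 omissions (limma adjusted p 0.0525 to 0.155) and Lrpprc only without R837 replicate 3 (0.0268 to 0.166), and with length and GC trends taken out Lrpprc was at -0.30 (limma adjusted p = 0.0924). The median of the 16 was -0.14. Median exon length was 3271 bases for the assembly genes and 4143.5 for the translation factors, beside 2394 for the members. With length and GC trends taken out the medians were -0.11 and -0.15, beside 0.10 for the members and 0.01 over all tested genes. Tufm, the mitochondrial elongation factor Tu, had a log2 change of 0.01 ± 0.12 (SE).

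Taurine itself is a building block of mitochondrial translation, since Mto1 and Gtpbp3 attach a taurine-derived group to the wobble uridine of certain mitochondrial tRNAs and Trmu adds sulfur to some of them. None of these 3 genes passed in limma. In replicates 1, 2 and 3, Mto1 had 453, 444 and 463 normalized counts with R837 and 339, 377 and 435 with R837 plus taurine. The taurine libraries were all below, and the log2 change of Mto1 was -0.25 ± 0.14 (SE) with an adjusted p of 0.319 in limma. Gtpbp3 had a log2 change of -0.27 ± 0.18 (SE) and Trmu one of 0.35 ± 0.17 (SE), both with overlapping groups. The 37 genes encoded in mitochondrial DNA, among them both ribosomal RNAs, were listed at 0 in every library, so no product of mitochondrial transcription could be set beside these values.

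Of 14 genes of mitochondrial biogenesis and transcription, none was called higher and 2 (14.3%) were called lower, with a median log2 change of -0.20, where 3.75% of all tested genes were called higher and 2.66% lower in limma. Myc encodes a transcription factor that activates many genes of ribosome production and growth. The R837 replicates 1, 2 and 3 held 4401, 4094 and 3694 normalized counts of Myc and the taurine replicates 2963, 3012 and 3049. All taurine libraries lay below, and it fell by 0.43 ± 0.08 (SE) on the log2 scale with an adjusted p of 0.0244 in limma. Pprc1 encodes a coactivator related to PGC-1. Normalized counts of Pprc1 were 2587, 2346 and 2301 in the R837 libraries and 1826, 1042 and 1509 in the taurine libraries, each in the order of replicates 1, 2 and 3. It fell by 0.76 ± 0.18 (SE), with an adjusted p of 0.0450 in limma, and its exons overlap those of Ldb1. With 1 library left out, Myc passed only without R837 replicate 3 (limma adjusted p 0.0109 to 0.1001 over the 6 omissions) and Pprc1 only without taurine replicate 1 (0.0371 to 0.133). Pprc1 did not pass in edgeR (adjusted p = 0.0564). Tfam and Polrmt, which package and transcribe mitochondrial DNA, had log2 changes of -0.23 ± 0.12 (SE) and -0.16 ± 0.15 (SE) and did not pass. These 14 genes had a median exon length of 4561.5 bases, and their median with length and GC trends taken out was -0.14.

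The cytosolic ribosome and the respiratory chain give values to set beside these. Of 77 tested genes of cytosolic ribosomal proteins 56 were called higher (72.7%) and none lower in limma, with a median log2 change of 0.35. Of 74 nuclear-encoded subunits of oxidative phosphorylation 4 were called higher (5.41%) and none lower, with a median of 0.23. The corresponding values of the 78 members were 2 (2.56%), none and 0.09, and those of all tested genes 3.75% higher, 2.66% lower and a median of -0.01. All taurine libraries lay above all R837 libraries for 71 cytosolic ribosomal genes (92.2%) and 41 oxidative phosphorylation genes (55.4%). That compares with 24.4% of the members and 14.6% of all tested genes. No gene of these 2 lists had all taurine libraries below, against 5.13% of the members and 15.0% of all tested genes. The difference between these lists was not tested.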

How the data were processed

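Each deposited file gives a signal per gene, named a normalized count per the file headers, for 52550 genes and 6 libraries. Within each library all values were multiples of a constant, so whole reads could be recovered for 100% of values (tolerance 0.001 read). The submitters' processing notes name HISAT2, StringTie, mm8 and mm10 without role or version. Which tools counted and normalized the reads, and whether strand was used, is not given in the sources used here. Gene coordinates are those of the deposited files. Exon length (union of exons), GC content and exon overlaps came from GENCODE M21 (mm10). All 78 members were found in it, 72 with the same coordinates as in the files.

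Values were taken as log2(normalized count + 1), for the 15265 genes that reached 10 in at least 3 of 6 libraries, a filter that all 78 members passed. The group difference was tested two-sided in limma 3.58.1 (R 4.3.3) with a prior variance that follows abundance, p-values were adjusted by Benjamini-Hochberg across all of these genes, and genes under 0.05 were called. Fold changes are on the log2(value + 1) scale, which understates changes of low genes. Alternatives were edgeR 4.0.16 (quasi-likelihood, TMM) and DESeq2 1.42.0 on recovered reads, other pseudocounts, filters and scalings, removal of length and GC trends, a block on the replicate number and leaving out each library. Adding the reads of overlapping genes was chosen after seeing the data. On simulated counts (15091 genes) limma recovered 67% of log2 changes of 1 and 12% of changes of 0.5, with 4 false calls. The simulation changed far fewer genes than were called in these data, which makes the adjusted threshold stricter. Its shares are therefore not the recovery in these data, where changes of the size seen here may still be below what the design detects.

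The members and lists were chosen with earlier results of these data known. Named members are every called one, the 4 highest and 4 lowest per kb, the 4 largest uncalled changes with a mean of at least 50, a fixed set by function, and others said to be chosen after seeing values. Structural names and the assignment to subunits came from general knowledge of the mammalian mitochondrial ribosome. All pairs of libraries within a group differed beyond sampling noise, and the libraries were kept as separate samples. Symbol rows of pseudogenes were not members, and the highest of them, Mrpl23-ps1, had a mean of 37.7.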

Additional observations from a re-analysis of the deposited data

How the results depend on the processing

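The count of members called higher was 2, where 573 of all 15265 tested genes were called higher (3.75%). The number of all genes called higher follows in brackets for each alternative. The members' count was 6 with DESeq2 (997, 6.53%) and 5 with a mean of at least 50 (670 of 11981, 5.59%). It was 1 with length and GC trends removed (656) and 1 after rescaling without the 50 most abundant genes (462). It was 0 with no filter on low values (333 of 23406) and with limma without the abundance trend (1). It was also 0 with a replicate block, alone (365) or together with removal of length and GC trends (431). With reads of overlapping genes added, Mrps23, Mrps21, Mrpl13 and Mrpl49 were called higher (577). With each library left out in turn the members' count ranged from 0 to 1. No member was called lower, except Mrpl48 with DESeq2 and with reads of overlapping genes added (-0.44, limma adjusted p = 0.0378), and 0 to 1 with a library left out (Mrpl48 without R837 replicate 3). The count over all genes, called in either direction, was 979. It was 1929 with DESeq2, 547 with no filter on low values, 615 with a replicate block, 597 with the block and the trends removed, and 134 to 1477 with a library left out. Limma without the abundance trend called 4 genes, with 3217 at an unadjusted p under 0.05. The members' median log2 change stayed between 0.05 and 0.11 under the alternatives run, and 48 to 59 of the 78 were above 0. Same-numbered libraries of the 2 groups had correlations of deviations of -0.003, -0.007 and -0.043. These values show no shared deviation by replicate number. With 3 libraries per group they cannot show that same-numbered libraries had no common origin. Of 487 values of 25 named members under alternatives, 458 kept their side of the threshold, 21 lost a call (Mrps23 and Mrps21), 8 gained one, and no called value changed sign. Among uncalled values, 22 changed sign in 9 members. The cause of these changes was not tested.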
